A study of Mus musculus with 30 samples.

Results

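Olfr433, Olfr429, Olfr421 and Olfr420 are 4 odorant receptor (OR) genes that lie close together near the distal end of mouse chromosome 1, among the 564 OR genes that were counted. They were chosen by their counts in mice of mixed genetic background, for large or shared variation between those mice, so that variation is described here and not tested. RNA of whole olfactory mucosa was counted by NanoString, a method that hybridises a pair of gene-specific probes to each RNA molecule and counts the bound pairs without amplification, with 1 µg of total RNA from 1 mouse in each lane. There were 5 groups of 6 mice, all 21 days old. On cartridge MK38, 6 wild-type mice of strain 129SvEvTac (4 females and 2 males, background 129S6/SvEvTac) were compared with 6 mice homozygous for ΔOlfr7Δ (2 females and 4 males, 129SvEv inbred), which lack the Olfr7 cluster of OR genes. Cartridge MK29 held 6 mice homozygous for both ΔP (Berry) and ΔH (1 female and 5 males), called ΔHxΔP, and 6 wild-type mice of their companion strain (3 females and 3 males), and MK37 held 6 wild-type mice of the companion strain of ΔH (4 females and 2 males). The mice of MK29 and MK37 all had a mixed C57BL/6J x 129SvEv background, and which alleles each of these mice carried on chromosome 1 was not analysed here. Within a group, mice are numbered in the order of their records, and the number is a name only.

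An OR gene encodes a receptor of the G protein-coupled type that binds odorants in the cilia of olfactory sensory neurons. A mature olfactory sensory neuron expresses a single OR gene, from 1 of its 2 alleles, and OR genes stand in clusters along the chromosomes. The count of an OR gene in RNA of the whole mucosa therefore reflects how many neurons have chosen it and how much of its mRNA each of them holds. In bulk RNA, fewer cells that express a receptor and less RNA per cell cannot be told apart.

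By their older family names in RefSeq, Olfr429, Olfr421 and Olfr420 belong to family MOR105 and Olfr433 to family MOR123. RefSeq lists Olfr433, Olfr429 and Olfr420 as protein-coding genes and Olfr421, under the name Olfr421-ps1, as a transcribed pseudogene. In the RefSeq order (assembly GRCm38.p6) of the counted genes Olfr433 comes first, then Olfr432, Olfr430, Olfr429, Olfr424, Olfr421 and Olfr420, so that Olfr421 and Olfr420 are neighbours among the counted genes. These 7 are the counted genes among 12 OR entries from Olfr433 to Olfr420.

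Each value below rests on the binding of the 2 probes of a gene, which are shown because near-identical neighbours could share them. Capitals mark the longest run of bases that a probe shares with any other OR probe of the panel, written as the deposited table gives the probes.
Olfr433 capture: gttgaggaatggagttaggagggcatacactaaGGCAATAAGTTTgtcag
Olfr433 reporter: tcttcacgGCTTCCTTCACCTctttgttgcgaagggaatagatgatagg
Olfr429 capture: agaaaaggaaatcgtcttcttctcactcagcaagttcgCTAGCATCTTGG
Olfr429 reporter: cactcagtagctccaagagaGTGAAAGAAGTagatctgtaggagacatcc
Olfr421 capture: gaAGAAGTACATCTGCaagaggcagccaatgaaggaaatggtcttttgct
Olfr421 reporter: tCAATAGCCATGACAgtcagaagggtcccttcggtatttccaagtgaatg
Olfr420 capture: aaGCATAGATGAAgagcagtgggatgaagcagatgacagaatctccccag
Olfr420 reporter: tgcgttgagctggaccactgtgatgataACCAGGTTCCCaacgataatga
The longest shared run was 13 bases for Olfr433, 12 for Olfr429, 14 for Olfr421 and 11 for Olfr420, against a median of 12 over the 564 OR genes, where the highest was 35. The probes that held these 8 runs were those of Olfr630 and Olfr811 for Olfr433, Olfr711 and Olfr464 for Olfr429, Olfr275 and Olfr309 for Olfr421, and Olfr2 and Olfr63 for Olfr420. Probes were compared only with other probes, so whether a probe also binds RNA of another gene, counted or not, was not tested. Whether strain differences lie under a probe was not tested either. Levels of different genes are not compared because probes differ in how well they are counted.

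The 300 bases around the gene start in RefSeq (GRCm38.p6) are shown for the 2 ends of the stretch, Olfr433 and Olfr420. They run from 250 bases before the start to 50 after it on the plus strand, and capitals mark TAATTA, the core of a homeodomain binding motif.
Olfr433 chr1:174041683-174041982: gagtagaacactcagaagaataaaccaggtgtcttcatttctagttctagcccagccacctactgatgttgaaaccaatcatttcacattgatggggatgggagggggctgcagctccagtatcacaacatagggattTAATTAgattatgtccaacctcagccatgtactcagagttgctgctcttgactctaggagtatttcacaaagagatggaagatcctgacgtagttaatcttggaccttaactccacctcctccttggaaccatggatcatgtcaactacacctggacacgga
Olfr420 chr1:174158472-174158771: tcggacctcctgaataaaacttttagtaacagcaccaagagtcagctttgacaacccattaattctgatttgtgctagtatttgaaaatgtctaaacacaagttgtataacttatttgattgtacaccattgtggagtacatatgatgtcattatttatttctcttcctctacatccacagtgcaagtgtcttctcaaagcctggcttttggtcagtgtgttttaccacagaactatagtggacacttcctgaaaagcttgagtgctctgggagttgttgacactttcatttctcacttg
On both strands TAATTA and, as a second homeodomain core, TAATTG were searched, as was the Olf/Ebf-type motif. TAATTA was found in the window of Olfr433 and begins 112 bases before the start, and none of these motifs was found in the windows of Olfr420 and Olfr429. Of other genes of the stretch, TAATTA was found in the window of Olfr430, 114 bases before the start. Whether transcription begins at the RefSeq start was not tested. TAATTA was present in 18.6% of 948 OR gene windows and in 5.29% of all 32851, and TAATTG in 23.2% and 8%. This exact form of the Olf/Ebf-type motif was present in 0.527% and 0.904%, and variant sites were not searched. A match is a description of the sequence only.

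The total count of OR genes per lane was 618163 to 1013430. On MK38 it was 618163 to 855414 in 129 wild-type mice and 833993 to 1013430 in ΔOlfr7Δ mice. Counts were scaled in each lane by the positive controls and then by the 5 reference genes Omp, Cnga2, Adcy3, Ano2 and Gnal, genes of mature olfactory sensory neurons, with factors from 0.799 to 1.37. The scaled counts of Omp lay between 104400 and 113698 in all 30 lanes, and no 2 lanes were identical. The background of a lane, the mean plus 2 SD of its negative controls, was 32.4 to 56.2 scaled counts. The deletions matched the labels: Olfr916 of the Olfr7 cluster had 13 to 27 scaled counts in ΔOlfr7Δ mice and 135 to 200 in the 129 wild-type mice, and Olfr1507 and Olfr2, genes controlled by the H and P elements, had 31 to 53 and 40 to 66 in ΔHxΔP mice against at least 4995 and 3491 in the mixed wild-type mice. In each of MK38 and MK29 the wild-type mice were in lanes 1 to 6 and the mutants in lanes 7 to 12, so the position on the cartridge and the genotype cannot be told apart.

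Olfr421 varied most. In the 129 wild-type mice its scaled counts were 634, 778, 642, 647, 553 and 546 in mice 1 to 6, and in ΔOlfr7Δ mice they were 1051, 655, 687, 1030, 751 and 940. They were 117, 113, 168, 156, 161 and 187 in the wild-type mice on MK29. In ΔHxΔP mice they were 906, 366, 384, 414, 1169 and 1118, and in the wild-type mice of MK37 they were 137, 984, 503, 461, 943 and 440. The wild-type mice of MK29 were thus all low, while ΔHxΔP mice and the wild-type mice of MK37 each held mice several-fold apart.

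Over the 18 mixed mice the highest Olfr421 count was 10.3 times the lowest. Ordered by count, the 18 values fell into 3 ranges with no mouse between them. The 6 wild-type mice of MK29 and mouse 1 of MK37 lay at 113 to 187. Next came 6 mice at 366 to 503, namely mice 2, 3 and 4 of ΔHxΔP and mice 3, 4 and 6 of MK37, and the step up to them was 1.95-fold. The other 5 mice, mice 1, 5 and 6 of ΔHxΔP and mice 2 and 5 of MK37, lay at 906 to 1169 after a step of 1.8-fold. No other step between neighbouring values was larger than 1.17-fold, and in the 12 mice of MK38 the largest step was 1.21-fold. The ranges were read from the values and are not groups of the study. The lowest counts were above the lane background, by a factor of at least 2.05, so that the low mice were not at the detection limit but close enough to it for background to weigh on the fold.

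The group medians of Olfr421 ran from 158 in the wild-type mice of MK29 to 482 in those of MK37, 638 in the 129 wild-type mice, 660 in ΔHxΔP and 845 in ΔOlfr7Δ mice, and each group's range overlapped that of its neighbour in this order. Every wild-type mouse of MK29 lay below every ΔHxΔP mouse on the same cartridge; the same held, with ΔHxΔP mice above, for 3.62% of the 553 OR genes tested. Both sexes were found in the low, middle and high ranges.

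**Figure D1:**
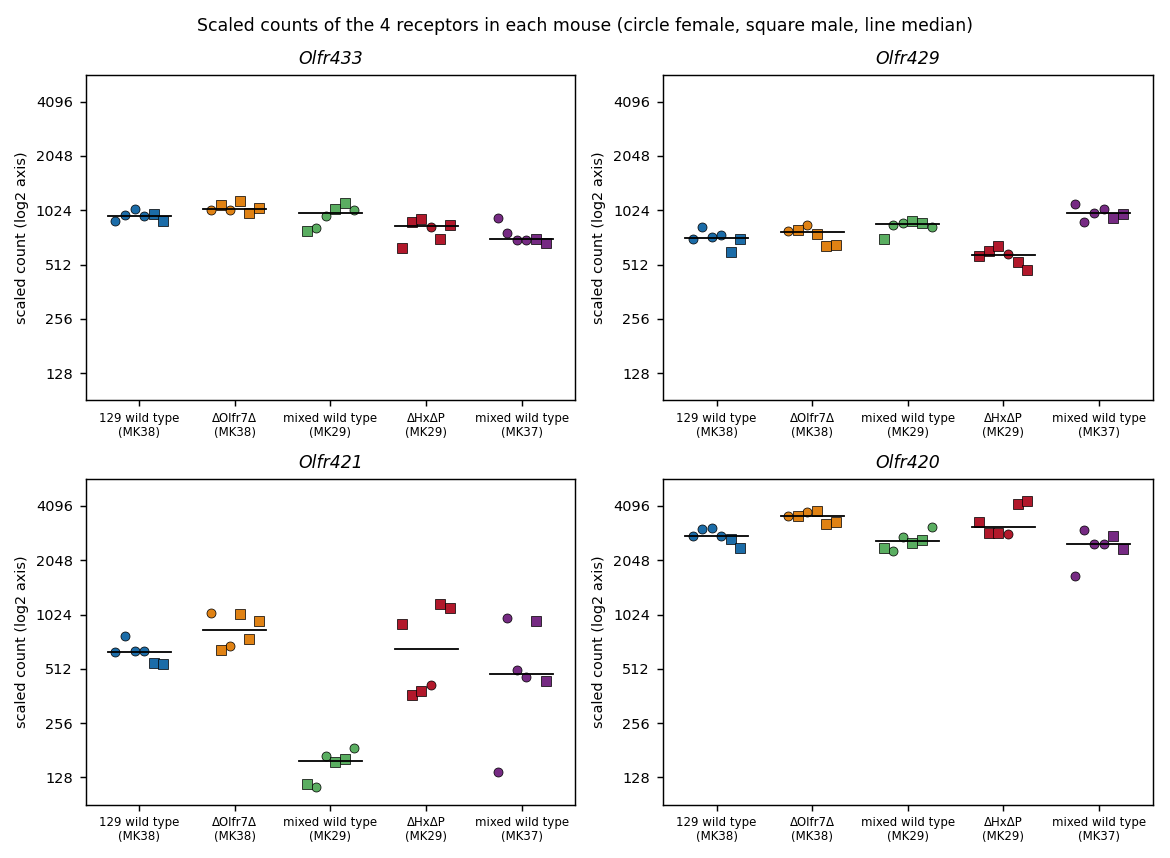
Scaled counts of Olfr433, Olfr429, Olfr421 and Olfr420 in each of 30 mice (log2 axis), by group; circles are females, squares males, and lines group medians. Olfr421 lies at 113 to 187 in MK29 wild-type mice and spreads from 137 to 984 in those of MK37, where the other 3 genes spread less.

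Olfr420 ranked the mice of both mixed wild-type groups as Olfr421 did, over a narrower range. Its scaled counts in mice 1 to 6 were 2384, 2310, 2741, 2544, 2662 and 3118 in MK29 wild-type mice, 3328, 2908, 2906, 2881, 4216 and 4390 in ΔHxΔP mice, and 1676, 3018, 2535, 2507, 2798 and 2369 in the wild-type mice of MK37. Mouse 1 of MK37 was the lowest of all 30 for Olfr420 and the lowest of its group for Olfr421. In both mixed wild-type groups the order of the 6 mice by Olfr420 was exactly their order by Olfr421 (Spearman's rho of 1.00 in each), and in ΔHxΔP mice rho was 0.71. Pearson's r of the log2 values was 0.93 in MK29 wild-type mice, 0.93 in ΔHxΔP and 0.99 in MK37, with 6 mice each, and stayed at 0.77 or above with TMM scaling or scaling on positive controls alone. Other distal genes came as close or closer to Olfr421 in ΔHxΔP mice, where r was 0.97 for Olfr1404, 0.96 for Olfr430 (rho 1.00), 0.95 for Olfr419 and 0.94 for Olfr218. In MK29 wild-type mice r was 0.92 for Olfr432. These are descriptions, in which all genes of a mouse share its lane and its scaling factor.

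Olfr421 and Olfr420 did not keep a fixed ratio. Within a lane the ratio of their counts is free of any scaling. For Olfr421 over Olfr420 it was 0.0491 to 0.0613 in wild-type MK29 mice, 0.0817 to 0.337 in those of MK37, 0.126 to 0.277 in ΔHxΔP, 0.206 to 0.254 in the 129 wild-type mice and 0.181 to 0.293 in ΔOlfr7Δ mice. The wild-type mice of MK29 lay below all the other mice in this ratio.

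For Olfr420 the group medians ran from 2521 in the wild-type mice of MK37 to 2603 in those of MK29, 2791 in 129 wild-type, 3118 in ΔHxΔP and 3588 in ΔOlfr7Δ mice, and every neighbouring pair in this order overlapped.

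Olfr429 ran against Olfr421 in ΔHxΔP mice and in the wild-type mice of MK37. In mice 1 to 6 its scaled counts were 709, 851, 869, 897, 874 and 825 in MK29 wild-type mice, 568, 610, 648, 583, 532 and 480 in ΔHxΔP, and 1114, 883, 994, 1035, 933 and 975 in the wild-type mice of MK37. Every ΔHxΔP mouse lay below all 12 mixed wild-type mice, a pattern shown by 7.90% of 557 OR genes in that comparison. Within MK37 the mouse lowest in Olfr421, mouse 1, was the highest in Olfr429, and the highest in Olfr421, mouse 2, was the lowest in Olfr429. Pearson's r between Olfr429 and Olfr421 was -0.93 in the wild-type mice of MK37 and -0.85 in ΔHxΔP, and from -0.70 to -0.89 in these groups under the other scalings. In the wild-type mice of MK29, where Olfr421 was low in every mouse, r was 0.50 and turned to -0.12 with TMM scaling. The opposite run was not particular to Olfr421. In ΔHxΔP mice r of Olfr429 was -0.96 with Olfr419, -0.95 with Olfr424 and Olfr1408 and -0.91 with Olfr420. It was above 0 there only with Olfr433 (0.33), Olfr1406 (0.45) and Olfr414 (0.67). In MK37 r of Olfr429 was -0.91 with Olfr420 and -0.89 with Olfr424.

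Between groups Olfr429 did not simply mirror Olfr421. Its group medians ran from 576 in ΔHxΔP to 721 in 129 wild-type, 773 in ΔOlfr7Δ, 860 in MK29 wild-type and 985 in MK37 mice, and neighbours in this order overlapped. The 129 wild-type mice spanned 598 to 828 and ΔOlfr7Δ mice 649 to 846.

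Olfr433, the gene farthest from Olfr420 of the 4, had the lowest SD of the 4 over the 18 mixed mice together but not within the mixed groups, where that of Olfr429 was lower. Its scaled counts in mice 1 to 6 were 784, 821, 948, 1034, 1119 and 1022 in MK29 wild-type mice, 629, 885, 915, 832, 708 and 843 in ΔHxΔP, and 933, 769, 700, 704, 711 and 677 in the wild-type mice of MK37. It spanned 893 to 1039 in 129 wild-type and 987 to 1148 in ΔOlfr7Δ mice. Group medians ran from 708 in MK37 to 838 in ΔHxΔP, 953 in 129 wild-type, 985 in MK29 and 1040 in ΔOlfr7Δ, and neighbours overlapped. In MK37 mouse 1 stood above the other 5 at 933, in ΔHxΔP the mice with the least Olfr433 were mice 1 and 5, which were among those with the most Olfr421, and r between Olfr433 and Olfr421 was -0.67 in each of these groups. In MK37 that value rests on mouse 1, since rho over the ranks was 0.09. In MK29 wild-type mice r was of the opposite sign, 0.84, and it was 0.67 with TMM scaling and 0.74 on positive controls alone.

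**Figure D2:**
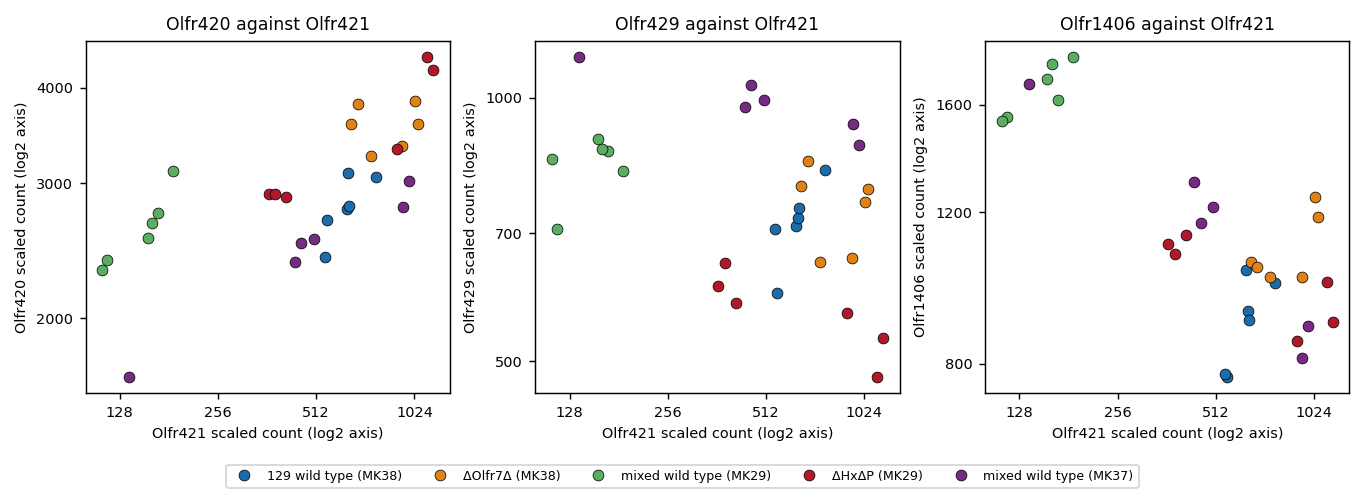
Scaled counts of Olfr420, Olfr429 and Olfr1406 against those of Olfr421, 1 point per mouse, coloured by group (log2 axes). In the wild-type mice of MK37 and in ΔHxΔP mice, Olfr420 is higher and Olfr429 and Olfr1406 are lower where Olfr421 is higher, while the 12 MK38 mice stay between 546 and 1051 for Olfr421.

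The gene least like Olfr421 over the 18 mixed mice was another receptor of the distal stretch, Olfr1406 of family MOR267, with r of -0.93 among 557 other OR genes and -0.80 after each group's mean was removed. Within groups r was -0.96 in MK37 and -0.83 in ΔHxΔP mice. In MK29 wild-type mice it was 0.87, and 0.40 with TMM scaling and 0.50 on positive controls alone, so the opposite run was not shared by that group. Olfr414, also of the stretch, was the next least like Olfr421, with r of -0.82 over the 18 mice and -0.56 after group means were removed. Within groups r of Olfr414 with Olfr421 was -0.94 in ΔHxΔP mice, -0.42 in MK37 and 0.76 in MK29 wild-type mice. Taken from the lowest to the highest Olfr421 count, the mice of MK37 had 1692, 1301, 1164, 1217, 812 and 886 scaled counts of Olfr1406, and ΔHxΔP mice had 1103, 1074, 1129, 849, 994 and 895. The wild-type mice of MK29, with the lowest Olfr421 counts, had 1533 to 1818. The 129 wild-type mice had 772 to 1029 and ΔOlfr7Δ mice 1009 to 1251. The ratio of Olfr421 to Olfr1406 within a lane spanned 0.074 to 0.103 in wild-type MK29 mice and 0.0809 to 1.16 in those of MK37, a wider span than in 129 wild-type mice, where it was 0.616 to 0.784.

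By Pearson's r of log2 values over the 18 mixed mice, the gene most like Olfr421 was Olfr424, the counted gene next to it, with r of 0.90, followed by Olfr66 (0.84) and Olfr632 (0.83) of chromosome 7. After each group's mean was removed these became 0.79, 0.64 and 0.52, while that of Olfr420 with Olfr421 was 0.69 before and 0.95 after. For Olfr420 the most alike were Olfr646 (0.90), Olfr1009 (0.88) and Olfr638 (0.85), none of them on chromosome 1. For Olfr429 they were Olfr449 (0.96), Olfr491 (0.95) and Olfr705 (0.93), and r of the last was 0.15 once group means were removed. For Olfr433 they were Olfr414 (0.74) and Olfr1406 (0.71) of chromosome 1 and Olfr746 (0.67). Where values fall into separate ranges, as for Olfr421, r is set mainly by the steps between them.

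Over the 12 MK38 mice the genes most alike were others. For Olfr421 they were Olfr494 (0.94), Olfr412 (0.94) and Olfr399 (0.91), for Olfr420 Olfr1511 (0.99), Olfr1366 (0.98) and Olfr1037 (0.98), for Olfr429 Olfr561 (0.85), Olfr555 (0.79) and Olfr794 (0.79), and for Olfr433 Olfr351 (0.93), Olfr368 (0.92) and Olfr411 (0.90). None of these lies on chromosome 1. Olfr1406 had r of 0.84 with Olfr421 in MK38, or 0.69 after group means were removed.

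**Figure D3:**
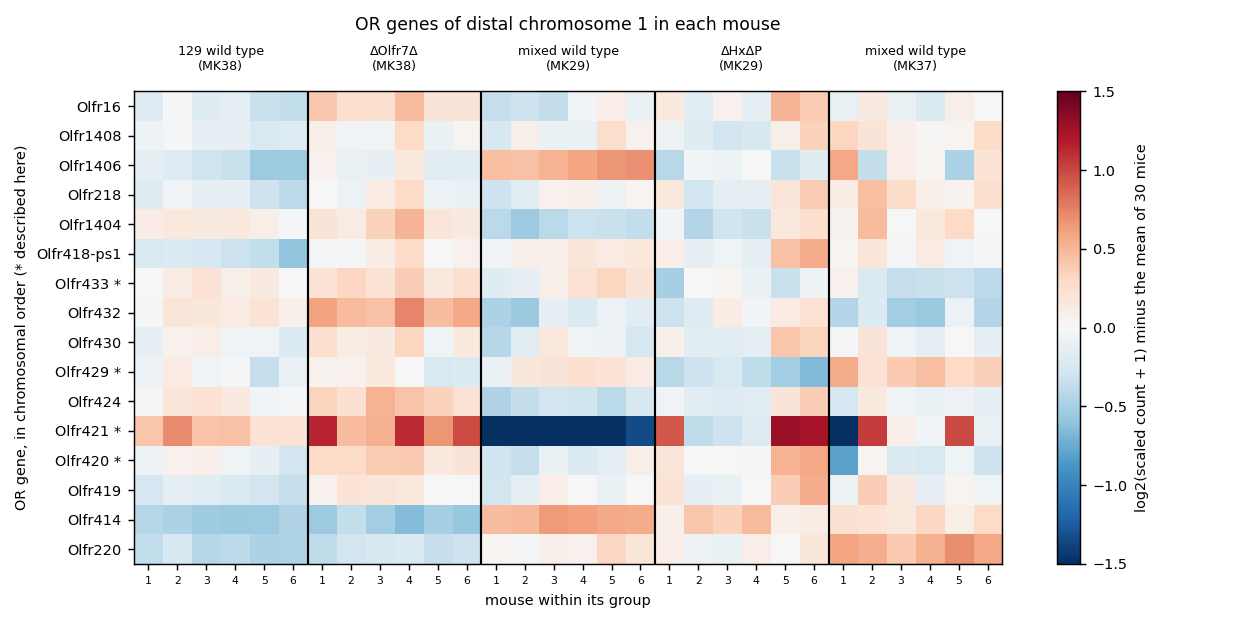
Log2 of the scaled count plus 1, minus the mean of the 30 mice, for 16 OR genes of distal chromosome 1 in chromosomal order (rows, with asterisks on the 4 genes) and each mouse by group (columns); colours end at 1.5 in either direction. Olfr421 shows the widest range, with Olfr1406 running opposite to it in ΔHxΔP and MK37 mice.

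The other 12 counted OR genes of the distal stretch, from Olfr16 to Olfr220, were not chosen for their variation and were tested with limma on log2 of the scaled count plus 1, with a Benjamini-Hochberg adjusted p under 0.05 as the call. Between the mixed wild-type groups, 4 of the 12 were higher in MK37 (Olfr218, Olfr1404, Olfr424 and Olfr220) and 2 lower (Olfr1406 and Olfr414), against 29.3% higher and 10.8% lower of 557 OR genes. The call of Olfr218 was lost with TMM scaling (0.17, adjusted p = 0.0597). Olfr1404 changed by 0.56 (SE 0.08, adjusted p = 4.28e-05) and Olfr1406 by -0.54 (SE 0.13, adjusted p = 0.00432) on the log2 scale. Cartridge and strain cannot be told apart in this comparison. In ΔHxΔP against the 12 mixed wild-type mice 1 of the 12 was higher, Olfr432 (0.31, SE 0.10, adjusted p = 0.0179), and 2 were lower, Olfr1406 (-0.46, SE 0.15, adjusted p = 0.0248) and Olfr220 (-0.30, SE 0.10, adjusted p = 0.0293), where 10.2% of 557 genes were higher and 23.9% lower. With sex as a covariate none of the 12 was called in limma, with adjusted p from 0.0607 to 0.0628 for these 3. The call of Olfr1406 was also lost with TMM scaling (-0.41, adjusted p = 0.0652) and without ΔHxΔP mouse 1 or 5, and that of Olfr220 without mouse 2, 3 or 5, against the wild-type mice of MK29 alone (-0.08) or with scaling on positive controls alone (-0.26). That of Olfr432 was lost against the wild-type mice of MK29 alone (0.25, adjusted p = 0.0843). The 12 wild-type mice pool 2 companion strains on 2 cartridges, and the fit had no term for either. For Olfr1406 the mean log2 value was 9.97 in ΔHxΔP mice, 10.70 in MK29 wild-type mice and 10.16 in those of MK37. For Olfr220 these means were 11.44, 11.52 and 11.97.

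In the 129 wild-type mice against the 12 mixed wild-type mice 2 of the 12 were higher (Olfr432 and Olfr424) and 7 lower, beside 33.3% higher and 37.3% lower of 549 OR genes. The 2 largest decreases were those of Olfr414 (-0.89, SE 0.08, adjusted p = 1.39e-09) and Olfr220 (-0.72, SE 0.10, adjusted p = 1.55e-06). Against the wild-type mice of MK29 alone the calls of Olfr1408 (-0.12, adjusted p = 0.128) and Olfr218 (-0.13, adjusted p = 0.116) were lost. Background strain and cartridge cannot be told apart there. Since the 12 mixed wild-type mice serve in several of these comparisons, the comparisons are not independent.

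For the 4 chosen genes the same differences are given without a test. On the log2 scale ΔHxΔP minus mixed wild type was 1.25 for Olfr421, 0.42 for Olfr420, -0.68 for Olfr429 and -0.08 for Olfr433. MK37 minus MK29 wild type was 1.71, -0.10, 0.24 and -0.35 in the same order. The 129 wild-type mice minus the mixed wild-type mice was 1.23, 0.14, -0.34 and 0.18. The value of Olfr421 depended on which wild-type mice were used. Against those of MK29 alone ΔHxΔP mice differed by 2.11 and the 129 mice by 2.08, and against those of MK37 alone the 129 mice differed by 0.37. ΔHxΔP mice were not fitted against those of MK37 alone. The mean log2 value of Olfr421 was 9.33 in ΔHxΔP mice, 8.92 in MK37 wild-type mice and 7.22 in those of MK29.

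The SD of log2 values gives the spread within groups. For Olfr421 it was 1.03 in the wild-type mice of MK37, rank 4 of 558 OR genes, 0.80 in ΔHxΔP mice, rank 6, and 0.29 in the wild-type mice of MK29, where it ranked 30. In the 129 wild-type mice it was 0.19, rank 51 of 555, and in ΔOlfr7Δ mice 0.30, rank 30. For Olfr420 it was 0.29 in MK37 (rank 24) and 0.10 to 0.28 in the other groups. Olfr429 had 0.12 to 0.16 and Olfr433 0.08 to 0.21 within groups, where the median over OR genes was 0.11 to 0.18. Over all 18 mixed mice together the SDs were 1.19 for Olfr421 (rank 15), 0.36 for Olfr429 (72), 0.31 for Olfr420 (101) and 0.24 for Olfr433 (217). Several of the genes that ranked above Olfr421 there, such as Olfr1507 and Olfr2, lack expression in ΔHxΔP mice.

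**Figure D4:**
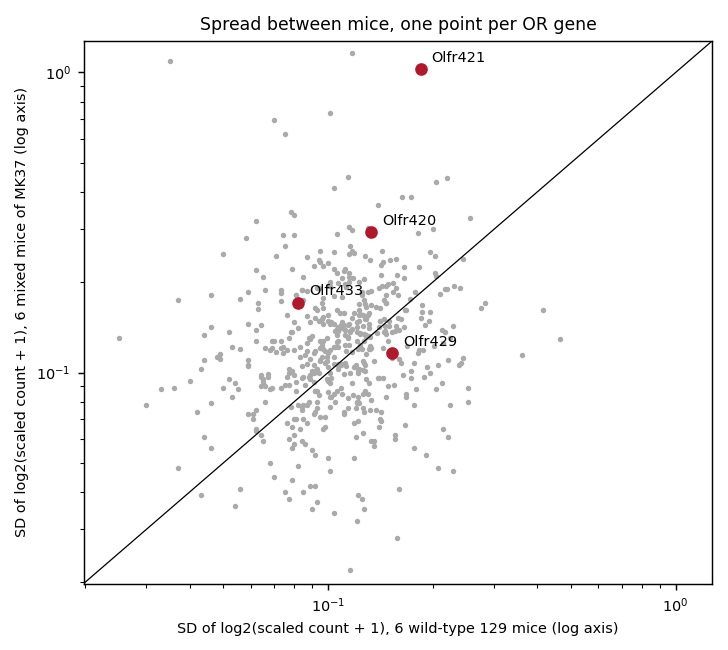
SD of log2 of the scaled count plus 1 over 6 wild-type 129 mice (x axis) against that over 6 mixed wild-type mice of MK37 (y axis), 1 point per OR gene on log axes, with the line of equal SD. Olfr421 lies at 0.19 and 1.03, Olfr420 and Olfr433 also above the line, and Olfr429 below it. The mice of MK37 were among those by whose variation the genes were chosen.

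The comparison of ΔOlfr7Δ with 129 wild-type mice was not used to choose the genes. It asks whether OR genes outside the deleted Olfr7 cluster differ between mice with and without that cluster. The labels name Charles River Laboratories, Germany, for the wild-type mice and only the strain for the mutants. Source of the mice, lane position and deletion therefore cannot be told apart. Olfr421 and Olfr420 were higher in the mutants and Olfr429 and Olfr433 did not pass the test. In limma 2 of the 4 genes were called, both higher, where 23.4% of 552 OR genes were called higher and 12.1% lower. Genes of the deleted cluster, absent from the mutants, were not removed from these 552 and add to the share called lower. Olfr420 was 2779, 3057, 3092, 2802, 2690 and 2403 scaled counts in the wild-type mice and 3590, 3586, 3803, 3841, 3254 and 3352 in the mutants. The groups did not overlap, as for 11.1% of OR genes in this direction. Its fold was 1.28 (log2 change 0.35, SE 0.07, 95% interval 0.21 to 0.49, limma adjusted p = 0.000127).

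Olfr421 was 1.33-fold higher in ΔOlfr7Δ mice (log2 change 0.41, SE 0.11, 95% interval 0.19 to 0.63, limma adjusted p = 0.0033). Its groups overlapped, with mutants 1, 4 and 6 above the highest wild-type mouse at 778 and mutants 2, 3 and 5 within the wild-type range. The 2 male wild-type mice were the lowest of their group for Olfr421, at 553 and 546, and also for Olfr420, and with sex as a covariate the log2 changes were 0.47 for Olfr421 and 0.40 for Olfr420, both called.

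Olfr433 had a log2 change of 0.15 (SE 0.07, unadjusted 95% interval 0.02 to 0.29, limma adjusted p = 0.0728) and Olfr429 one of 0.05 (SE 0.08, 95% interval -0.11 to 0.22, limma adjusted p = 0.649). The interval for Olfr429 allows a fold from 0.924 to 1.17. The median change over all OR genes tested was 0.06. Scaling on the positive controls alone moved that median up by 0.18, and all 4 genes then passed, with changes of 0.53 for Olfr420, 0.59 for Olfr421, 0.33 for Olfr433 and 0.23 for Olfr429. The tTREAT test, a t-statistic set against a fold threshold, called none of the 4 at a fold of 1.3 and an unadjusted threshold of 0.01, on background-subtracted values.

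Other genes of the stretch rose as well. The median log2 change of the 12 was 0.24, against 0.06 over all genes and 0.25 over the 4 genes. The tTREAT test called none of the 12. Beside 23.4% higher and 12.1% lower of 552 OR genes, limma called none of the 12 lower in ΔOlfr7Δ mice and 8 higher. They were Olfr16 (0.50, SE 0.08, adjusted p = 5.18e-06), Olfr432 (0.42, SE 0.07, adjusted p = 6.98e-06), Olfr418-ps1, Olfr419, Olfr1406, Olfr424, Olfr218 and Olfr430, the last at 0.20 (SE 0.07, adjusted p = 0.032). Olfr414 was at -0.03 and Olfr220 at 0.10, and neither passed. The call of Olfr430 was lost without 129 wild-type mouse 1, 4, 5 or 6 or ΔOlfr7Δ mouse 1 or 4, and that of Olfr218 without 129 wild-type mouse 5 or 6 or ΔOlfr7Δ mouse 3 or 4. Of the counted genes that lie between Olfr433 and Olfr420, Olfr432, Olfr430, Olfr424 and Olfr421 were called and Olfr429 was not.

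**Figure D5:**
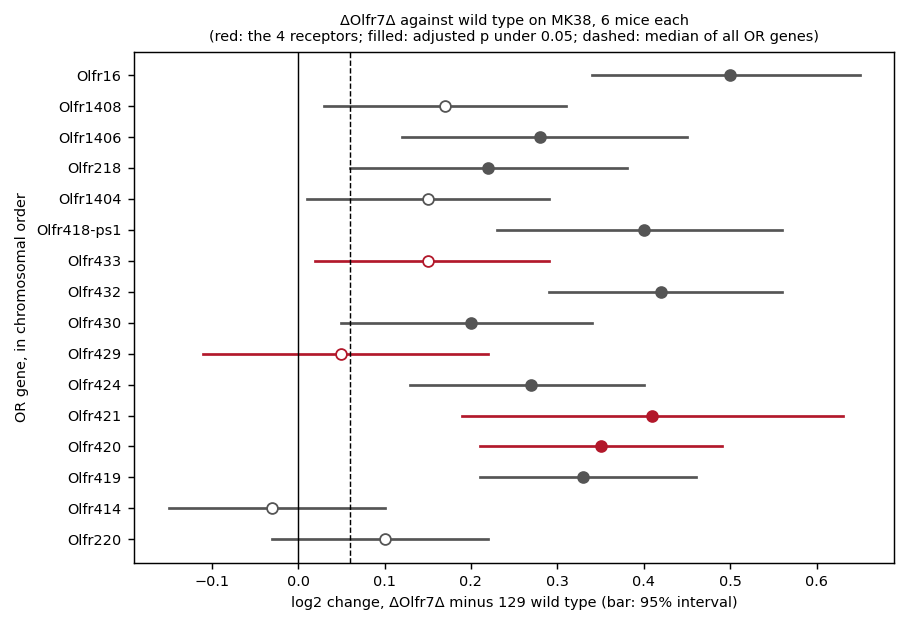
Log2 change in ΔOlfr7Δ against 129 wild-type mice with its 95% interval for 16 OR genes of distal chromosome 1 in chromosomal order; red marks the 4 genes, filled points an adjusted p under 0.05, and the dashed line the median of all OR genes at 0.06. Olfr421 and Olfr420 are filled at 0.41 and 0.35, and Olfr433 and Olfr429 are open.

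Whether the 4 genes vary together in inbred mice was tested within each MK38 group of 6, over 12 relations, by an exact two-sided permutation test of all 720 pairings. None passed after Benjamini-Hochberg adjustment for Pearson's r or Spearman's rho. The 129 wild-type mice gave r of 0.80 for Olfr421 with Olfr420 (exact p = 0.0347, adjusted 0.228; rho 0.83, exact p = 0.0583, adjusted 0.35) and 0.84 for Olfr421 with Olfr429 (exact p = 0.0569, adjusted 0.228; rho 0.94, exact p = 0.0167, adjusted 0.2). Leaving out the 2 mice farthest from the group median of 1 gene of the pair left 4 mice. These values of r were then 0.61 (mice chosen by Olfr421) and 0.70 (mice chosen by Olfr429). In ΔOlfr7Δ mice r was 0.08 for Olfr421 with Olfr420 (exact p = 0.854, adjusted 0.932; rho 0.26, exact p = 0.658, adjusted 0.79) and -0.21 for Olfr421 with Olfr429 (exact p = 0.589, adjusted 0.775; rho -0.37, exact p = 0.497, adjusted 0.746). The highest r there was 0.86 for Olfr429 with Olfr420 (exact p = 0.0472, adjusted 0.228; rho 0.60, exact p = 0.242, adjusted 0.58), and it was 0.09 without the 2 farthest mice. Whether the relations differ between MK38 and the mixed mice was not tested.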

How the data were processed

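The authors deposited 1 table of raw NanoString counts for 30 lanes (CodeSet Gorilla C742), neither scaled nor background-subtracted. Because of its layout it was recorded as a unit other than counts, so no count model was run. Aligners and genome builds do not apply. The table holds 6 positive controls, 8 negative controls, 5 reference genes and 564 OR genes, of which 549 have a count in every lane. No pooled or other samples' columns were found (0).

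Counts were scaled over all 30 lanes together with geometric means, first of the positive controls and then of the reference genes, and no background was subtracted, although the methods of the study do so in each lane. OR genes were tested if the median in wild-type mice, less the lane background, reached 100 scaled counts; all 4 genes passed in every comparison. limma 3.58.1 in R 4.3.3, with a mean-variance trend, was fitted to log2(scaled count + 1) and called at a Benjamini-Hochberg adjusted p of 0.05, after a test on simulated data. Each lane is 1 mouse. Mice, not lanes of 1 mouse, are the replicates, and 6 mice a group limit the precision. Fold changes on this scale understate the change of low genes. RefSeq names were found for all 564 OR symbols, and windows around the RefSeq gene start for 3 of the 4 genes (not Olfr421). The 4 genes, the 12 others and the tests were chosen with earlier results of these data known. Genes were named as the 4, the 12, the 3 most alike, the reference genes and deletion checks. The deletion checks Olfr916, Olfr1507 and Olfr2 were added after their values were seen. Alternatives covered TMM and positive-control scaling, no filter, a pseudocount of 10, background subtraction, sex, single wild-type groups, tTREAT and leaving out each mouse.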

Additional observations from a re-analysis of the deposited data

Results flagged for a closer look

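Of 20 combinations of gene and group, 1 held a mouse far from the other 5 by Dixon's ratio of gap to range, on the log2 scale, and chance flags about 1 in 20. In the wild-type mice of MK29, mouse 1 had 709 scaled counts of Olfr429, below the others at 825 to 897, with a ratio of 0.645. Mouse 1 of MK29 was also the lowest of its group for Olfr433, Olfr1408, Olfr218, Olfr418-ps1, Olfr430, Olfr424, Olfr419 and Olfr414. It was not the lowest for Olfr421, Olfr420, Olfr16, Olfr1406, Olfr1404, Olfr432 or Olfr220.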

How the results depend on the processing

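In ΔOlfr7Δ against 129 wild-type mice, Olfr421 and Olfr420 kept their direction and their call in every limma alternative, with log2 changes of 0.38 to 0.59 and 0.32 to 0.53. Leaving out each mouse in turn gave 0.35 to 0.48 and 0.31 to 0.38. The tTREAT test, which differs from limma here in its fold threshold of 1.3, its unadjusted threshold of 0.01 and its background-subtracted values, called neither (0.45 and 0.36), nor any of the 12 other distal genes (0; Olfr16 was at 0.0319), and called 39 OR genes in all against 129 higher and 67 lower in limma. Scaling on positive controls alone called Olfr433 (0.33), Olfr429 (0.23) and 324 OR genes; background subtraction called Olfr433 (0.17, adjusted p = 0.0368). Olfr433 ranged from 0.13 to 0.18 with 1 mouse left out and passed without 129 wild-type mouse 3 (0.18, adjusted p = 0.0486) or without ΔOlfr7Δ mouse 5 (0.17, adjusted p = 0.0498). For these shifts the cause was not tested. Genes of the deleted Olfr7 cluster, absent from the mutants, were not removed from the counts of OR genes called here or from the shares. The share of calls that were higher was 65.8% here, 57.7% with TMM and 87.3% with positive controls. For MK37 against MK29 it was 73.1%, 48.2% and 87.1%, for ΔHxΔP 57 higher against 133 lower, then 47.7% and 41.7% higher, and for the 129 against the mixed wild-type mice 47.2%, 49.2% and 37.2%.

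In ΔHxΔP mice 3 of the 12 distal genes were called, 6 with TMM and 0 with sex as a covariate. With 1 mouse left out the count was 1 to 4, and it was 1 without ΔHxΔP mouse 5. No correlation in MK38 passed under any alternative. Without the 2 farthest mice the exact test had too few pairings for a pass after adjustment to be likely, so that alternative says little. With TMM scaling r turned to -0.75 for Olfr433 with Olfr421 and -0.16 for Olfr429 with Olfr420 in 129 wild-type mice, and to -0.53 for Olfr433 with Olfr429, -0.12 for Olfr433 with Olfr420 and -0.11 for Olfr421 with Olfr420 in ΔOlfr7Δ mice. With positive controls r of Olfr433 and Olfr429 in 129 wild-type mice was 0.26, and without the 2 farthest mice that of Olfr433 and Olfr421 was -0.04. The SD of Olfr421 over the mixed mice was 1.15 to 1.41, ranking 14 or 15. The check of r within mixed groups under other scalings was chosen after seeing the data. No paired analysis was possible because the labels give no numbers that pair mice across groups. The planned count model was not run.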
